A study of Mus musculus with 6 samples.

Results

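The Enpp genes encode ectonucleotide pyrophosphatases/phosphodiesterases, and 6 of them, Enpp1 to Enpp6, were taken up by name. The family was selected on the difference between the treatments on these same arrays, that of Enpp3 above all. Of these 6 genes, 4 had a probe set assigned to them alone in the platform annotation, namely Enpp3, Enpp4, Enpp5 and Enpp6, each with 1 probe set. Enpp1 and Enpp2 were not analysed here, so the intended comparison of Enpp3 with Enpp1, the gene next to it on chromosome 10, could not be made. The 4 genes stood among 19937 genes measured in the series.

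The samples were 6 Affymetrix expression arrays, one per RNA sample, from mouse embryonic stem cells kept in serum and the cytokine LIF over feeder cells of DR4 mice. All 6 were of 1 line, V6.5 cells with a Biotin-3xFLAG tag knocked into Ctnnb1, the β-catenin gene, and with the biotin ligase BirA. For 3 arrays the cells had received CHIR99021 at 3 µM, which inhibits the kinase GSK3 and so stabilises β-catenin, and for the other 3 XAV939, which inhibits tankyrase and so lowers β-catenin, each for 24 h. The XAV939 dose was 3 µM by the sample labels and 1 µM by the treatment protocol. No untreated array was analysed here, so no difference can be traced to 1 of the compounds. Whether the replicates came from separate cultures was not stated, so errors and p-values measure only the spread between these arrays, which may be technical.

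ENPP enzymes cleave phosphodiester and pyrophosphate bonds on the outside of cells. ENPP1 and ENPP3 split ATP and related nucleotides into AMP and pyrophosphate. AMP can then be turned into adenosine by the ectonucleotidase NT5E, and pyrophosphate into phosphate by the alkaline phosphatase ALPL. ENPP2, also known as autotaxin, makes the lipid mediator lysophosphatidic acid, ENPP6 acts on choline-containing phosphodiesters, and ENPP1 also degrades cGAMP, the messenger that activates STING. ENPP3 is also known as a surface marker of basophils and mast cells.

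Array medians lay between 5.67 and 5.71 on the log2 scale. Arrays of 1 treatment correlated at 0.997 to 0.999 over genes, and arrays of different treatments at 0.994 to 0.995. All 8 stem cell markers checked (Pou5f1, Sox2, Nanog and others) had a mean above the probe set median. In limma, 3 of them were higher with CHIR99021 (Nanog, Esrrb and Zfp42) and 2 lower (Utf1 and Tdgf1). The shares over all genes were 5.31% higher and 4.34% lower. All 6 β-catenin targets measured were higher with CHIR99021 in limma's moderated test, against 5.31% of all genes. Axin2 was higher by 1.91 ± 0.09 (SE). Another listed target, T, was not analysed here. All levels below are log2 values made with RMA and each difference is the CHIR99021 mean minus the XAV939 mean, also on the log2 scale, with the standard error (SE) of the limma fit over 3 arrays per treatment. Levels of different probe sets are not comparable as amounts of RNA. In bulk samples fewer cells that express a gene and less RNA per cell cannot be told apart.

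Enpp3 (probe set 10368317, on chromosome 10) was far lower with CHIR99021 than with XAV939. Its log2 level was 7.15, 7.20 and 7.19 on CHIR99021 replicates 1, 2 and 3, and 9.83, 10.07 and 10.03 on XAV939 replicates 1, 2 and 3. The treatments did not overlap, and 2.63 log2 units separated the highest CHIR99021 array from the lowest XAV939 array. The means were 7.18 ± 0.03 (SD, n = 3) and 9.98 ± 0.13 (SD, n = 3). The difference of -2.79 ± 0.07 (SE) amounts to a 6.93-fold lower level, with a 95% interval of the fit from 6.25-fold to 7.69-fold. XAV939 replicate 1 was the lowest of its group, by 0.15 below the group mean. Without it the difference was -2.87. It was between -2.87 and -2.75 in all 15 alternative settings run for this gene. Enpp3 had the lowest difference of all 19937 genes (rank 1), a property known when the family was chosen, and its values are given as a description with no test.

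**Figure D1:**
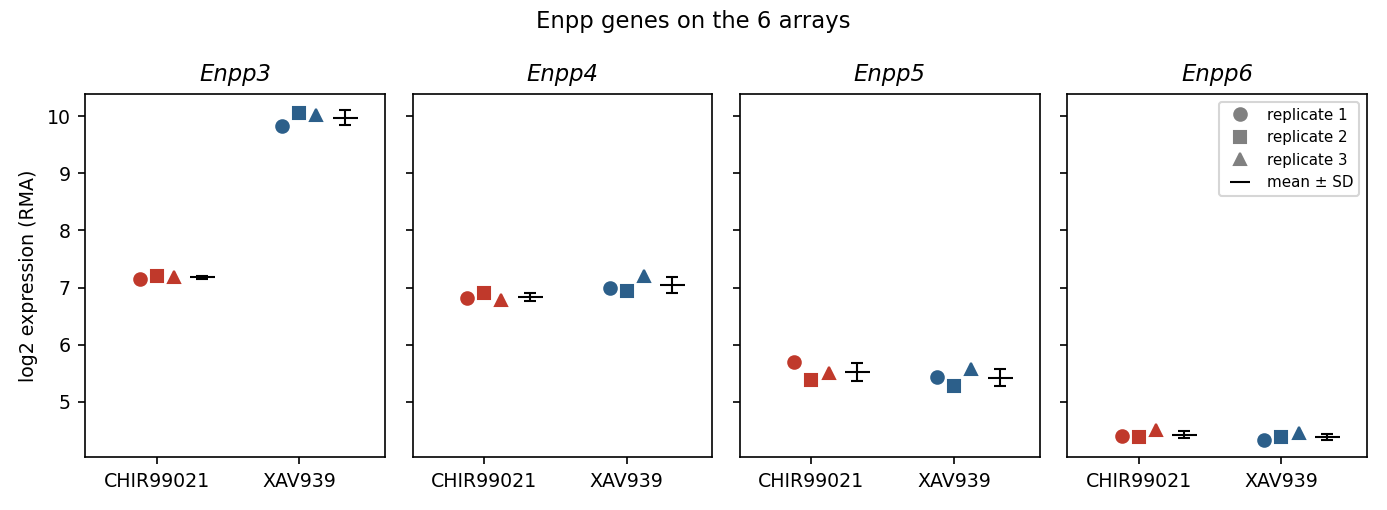
Log2 expression (RMA) of the 4 measured Enpp genes on each of the 6 arrays, with CHIR99021 in red and XAV939 in blue, one symbol per replicate number, and the mean ± SD (n = 3) in black beside the points. Enpp3 lies near 7.18 with CHIR99021 and near 9.98 with XAV939. For each of Enpp4, Enpp5 and Enpp6 all 6 arrays lie within 0.425 log2 units of each other.

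Enpp4 (probe set 10451054, on chromosome 17) encodes a membrane-bound family member known from blood vessels, where it cleaves dinucleoside polyphosphates. Its level was 6.81, 6.91 and 6.79 on the CHIR99021 arrays and 6.999, 6.93 and 7.20 on the XAV939 arrays. The groups did not overlap, but only 0.022 log2 units lay between CHIR99021 replicate 2 and XAV939 replicate 2. The difference was -0.21 ± 0.07 (SE), or 1.15-fold, with a 95% interval from -0.37 to -0.04 that is not adjusted for the number of genes, and Enpp4 was not past the threshold in the limma fit over all genes (adjusted p = 0.125). Without XAV939 replicate 3, the highest array, it was -0.13. The range over the alternatives was -0.26 to -0.13.

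Enpp5 (probe set 10445338, on chromosome 17), a membrane-bound relative of Enpp4 next to it on the chromosome, did not share the sign of Enpp4. Its level was 5.70, 5.37 and 5.50 with CHIR99021 and 5.43, 5.27 and 5.57 with XAV939, and the groups overlapped. The difference was 0.10 ± 0.09 (SE), with a 95% interval from -0.11 to 0.31. Its value depended on single arrays: it was 0.015 without CHIR99021 replicate 1, 0.025 without XAV939 replicate 2, 0.18 without CHIR99021 replicate 2 and 0.18 without XAV939 replicate 3.

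Enpp6 (probe set 10571715, on chromosome 8) encodes the choline-specific family member, known from cells of the oligodendrocyte lineage. Its level was 4.39, 4.38 and 4.50 with CHIR99021 and 4.32, 4.38 and 4.44 with XAV939, and the groups overlapped. The difference of 0.041 ± 0.058 (SE) was smaller than its error, with a 95% interval from -0.09 to 0.17. It was 0.0030 without CHIR99021 replicate 3 and 0.012 without XAV939 replicate 1, and was 0.073 without XAV939 replicate 3. The mean level of Enpp6 lay at percentile 21.6 and that of Enpp5 at percentile 46.3 of all probe sets, so both were measured where array signal is low. Enpp4 lay at percentile 68.1 and Enpp3 at percentile 85.6.

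Across the family, then, 1 of 4 measured genes (Enpp3) passed an adjusted p of 0.05 in the fit over all genes, against 9.65% of all genes in either direction and 4.34% in the lower direction. The treatments did not overlap for 2 of 4, both lower with CHIR99021, against 25.1% of all genes in either direction and 11.0% in the lower direction. The median difference of the 4 genes was -0.08, beside 0.0066 over all genes. Since the family was chosen with this contrast known, nothing is read from these counts.

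The promoters of Enpp3 and Enpp4 are shown because these were the members whose arrays did not overlap between the treatments, Enpp4 without passing the threshold, and their sequences differ in base composition. RefSeq promoters (build GRCm38.p6) were found for 3 of the 4 genes, Enpp3, Enpp4 and Enpp6, each spanning 250 bases before and 50 bases after the annotated start. The Enpp3 promoter is at chr10:24836146-24836445 and the Enpp4 promoter at chr17:44105760-44106059, both on the minus strand. They are printed 5′ to 3′ along the gene, and capitals mark matches to the TATA box TATAAA (or its reverse complement TTTATA) and to the CCAAT box.
Enpp3: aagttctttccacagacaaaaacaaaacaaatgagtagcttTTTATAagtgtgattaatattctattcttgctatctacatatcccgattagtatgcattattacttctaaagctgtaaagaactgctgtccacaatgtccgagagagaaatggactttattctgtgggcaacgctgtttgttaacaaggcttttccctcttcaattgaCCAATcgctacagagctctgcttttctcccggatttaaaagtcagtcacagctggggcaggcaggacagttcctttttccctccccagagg
Enpp4: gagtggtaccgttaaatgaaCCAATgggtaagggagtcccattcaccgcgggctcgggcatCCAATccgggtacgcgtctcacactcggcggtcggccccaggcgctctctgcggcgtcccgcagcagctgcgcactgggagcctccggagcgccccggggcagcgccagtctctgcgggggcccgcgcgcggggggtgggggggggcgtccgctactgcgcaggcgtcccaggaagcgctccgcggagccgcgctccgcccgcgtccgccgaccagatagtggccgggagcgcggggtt

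The Enpp3 promoter was AT-rich, with 40.7% G and C and 5 CpG dinucleotides, whereas that of Enpp4 had 73.7% G and C and 41 CpG dinucleotides. Of 32851 RefSeq promoters of this length, 11.4% had a lower G and C content than Enpp3 and 94.9% had a lower one than Enpp4. Enpp6 was like Enpp3 in this respect, with 40.3% G and C and 4 CpG dinucleotides. Motifs were searched on both strands: CTTTGA, the core bound by TCF/LEF factors, the partners of β-catenin on DNA; ATGCAAAT, the octamer bound by OCT4; TAATCC, bound by OTX2; TATAAA; and CCAAT. Enpp3 held CCAAT at position -41 and TATAAA on the opposite strand at position -209, counted to the first base from the start site. Enpp4 held CCAAT at positions -230 and -189. None of the 3 promoters held CTTTGA, ATGCAAAT or TAATCC, which occur in 16%, 1.74% and 7.06% of all promoters, and Enpp6 held none of the 5 motifs. CCAAT occurs in 37.4% and TATAAA in 13.6% of them. These are matches of letters in a short window and no binding was measured.

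The genes around Enpp3 had differences from -0.34 to 0.23, beside -2.79 for Enpp3. In RefSeq gene order no protein-coding gene lies between Enpp1 and Enpp3. Of the 10 nearest measured protein-coding genes, 5 on each side of the pair, 2 were lower with CHIR99021, 8 did not pass the threshold and none was higher in limma, with 1 higher at an unadjusted p under 0.05, against 5.31% of all genes higher and 4.34% lower. Their median difference was -0.046. Ccn2, a secreted matrix-associated protein, was at 9.06, 9.00 and 9.20 with CHIR99021 and 9.46, 9.41 and 9.39 with XAV939. It fell by 0.34 (SE 0.06, limma adjusted p = 0.0062). Moxd1, a monooxygenase-like gene, fell by 0.27 (SE 0.06, limma adjusted p = 0.014), a call lost without CHIR99021 replicate 1 or 2 (adjusted p = 0.070 and 0.063). On the other side, Med23, a Mediator subunit, differed by -0.14 ± 0.06 and Arg1, the liver arginase, by 0.05 ± 0.06, and neither passed. Epb41l2, a membrane skeleton gene, differed by 0.23 ± 0.07 with treatments that did not overlap, and did not pass (limma adjusted p = 0.064), but passed after renewed quantile normalisation (adjusted p = 0.042).

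Around the adjacent genes Enpp5 and Enpp4, 1 of the 6 nearest measured genes passed, in the lower direction, against 9.65% of all genes in either direction and 4.34% lower. Slc25a27, a mitochondrial carrier, fell by 0.26 (SE 0.06, limma adjusted p = 0.030), a call lost without any 1 of replicates 2 and 3 of either treatment (adjusted p = 0.088 to 0.138). Supt3, a subunit of a histone acetyltransferase complex, differed by -0.20 ± 0.06 (adjusted p = 0.056), and passed without XAV939 replicate 1 (adjusted p = 0.012), after renewed quantile normalisation (0.039) and with only the genes above the median level tested (0.047). Rcan2, Cyp39a1, Clic5 and 4930564C03Rik differed by between -0.05 and 0.05 and did not pass.

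**Figure D2:**
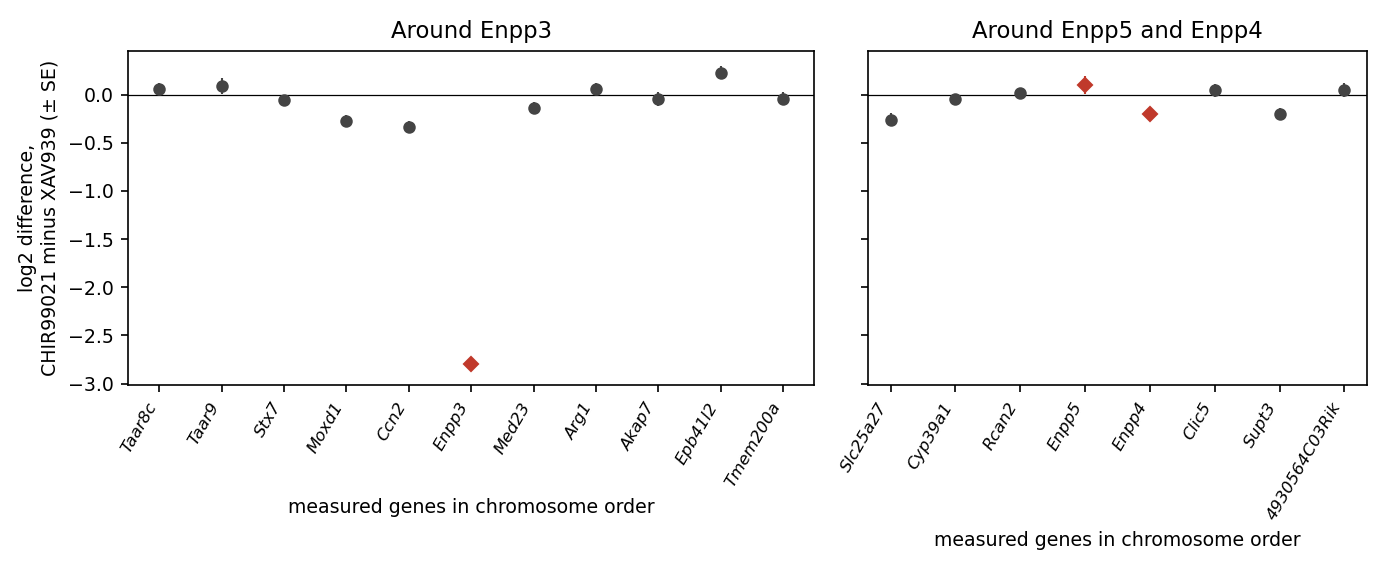
Log2 difference, CHIR99021 minus XAV939, with the SE of the limma fit (hidden behind the symbol where smaller), for measured genes in chromosome order around Enpp3 (left) and around Enpp5 and Enpp4 (right), with Enpp genes as red diamonds. Enpp3 lies at -2.79 while the 10 genes beside it lie between -0.34 and 0.23.

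The genes whose values followed Enpp3 most closely over the 6 arrays were Bcl2l11, Slc27a2, Sema3e, Chd9 and Car4. They had the highest Pearson correlation with Enpp3 (0.998 to 1.000) among 122 other named genes with an SD of at least 0.5 over the arrays, of which 20 had a correlation above 0.99. The 6 points share the treatment split, so the correlation is a description and mostly restates a large lower level with CHIR99021. A low XAV939 replicate 1, as in Enpp3, also follows largely from choosing genes by this correlation. Slc27a2, an acyl-CoA synthetase for very long-chain fatty acids, was at 7.34, 7.32 and 7.33 with CHIR99021 and at 9.53, 9.70 and 9.75 with XAV939. Like Enpp3 it was lowest within its group on XAV939 replicate 1. That array was also the lowest XAV939 array for Bcl2l11, which encodes the pro-apoptotic protein BIM, with 7.73, 7.72 and 7.75 against 8.86, 8.97 and 8.96. Sema3e, a secreted guidance cue, had a difference of -1.48, Chd9, a chromatin remodelling helicase, of -1.18 and Car4, a membrane-anchored carbonic anhydrase, of -1.67. Each was smaller in size than that of Enpp3, as follows from the rank of Enpp3 as the lowest of all genes.

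**Figure D3:**
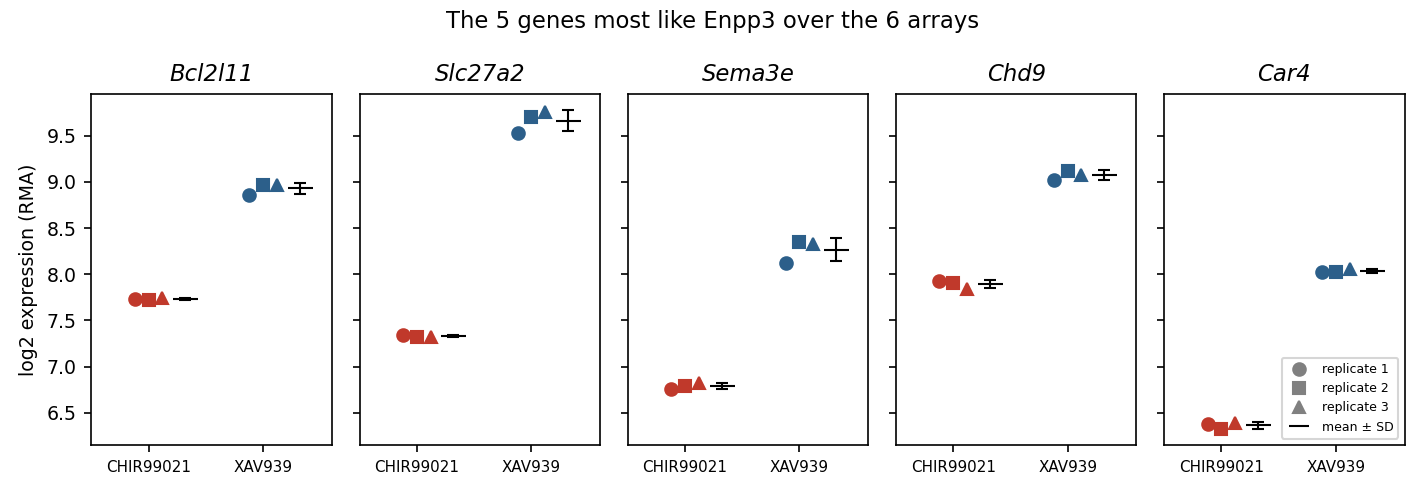
Log2 expression (RMA) of the 5 genes most correlated with Enpp3, on the 3 CHIR99021 arrays (red) and the 3 XAV939 arrays (blue), with mean ± SD (n = 3) in black. All 5 are lower with CHIR99021 without overlap, against 11.0% of all genes. XAV939 replicate 1 (circle) is the lowest XAV939 array in each. Both traits follow largely from choosing the genes by their correlation with Enpp3 over these arrays.

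Among enzymes that act on extracellular nucleotides and their products, Nt5e and Alpl were higher with CHIR99021. Of 16 measured ectonucleotidases and related enzymes, 2 rose (Nt5e and Alpl). None fell in limma (1 at an unadjusted p under 0.05) and 14 did not pass, against 5.31% of all genes higher and 4.34% lower. At an unadjusted limma p under 0.05, 5 were higher. Without overlap between the treatments, 6 were higher and 1 lower, against 14.1% and 11.0% of all genes. The median difference of the 16 was 0.06. Nt5e, which turns AMP into adenosine, was at 7.63, 7.63 and 7.77 with CHIR99021 and at 6.79, 6.96 and 6.46 with XAV939. It rose by 0.94 ± 0.11 (SE), or 1.92-fold (limma adjusted p = 2.69e-04). Alpl, the tissue-nonspecific alkaline phosphatase and a common marker of pluripotent cells, was at 8.96, 8.98 and 9.28 against 8.31, 8.31 and 8.26. It rose by 0.78 ± 0.08, or 1.72-fold (limma adjusted p = 1.49e-04). The nucleotide-cleaving Entpd1 to Entpd8, not all of which act on ATP or at the cell surface, did not pass. Their differences were from -0.16 (Entpd6) to 0.22 (Entpd3). Without XAV939 replicate 1, 1 member of the list was lower. Enpp7, the intestinal sphingomyelinase of the family and not among the 6 genes, differed by 0.11 ± 0.06 and did not pass.

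Among 19 measured nucleotide receptors, channels and transporters, 2 rose, none fell in limma (1 at an unadjusted p under 0.05) and 17 did not pass, against 5.31% of all genes higher and 4.34% lower. The list median was 0.0099. Slc29a1, the nucleoside transporter that carries adenosine into cells, was at 10.56, 10.53 and 10.59 with CHIR99021 and at 9.90, 9.92 and 9.89 with XAV939. It rose by 0.66 ± 0.05 (1.58-fold, limma adjusted p = 1.65e-05). Panx1, a channel that releases ATP, rose by 0.28 ± 0.08 (limma adjusted p = 0.042). Its call was lost without any 1 of CHIR99021 replicates 1 and 3 and XAV939 replicates 1 and 2 (adjusted p = 0.089 to 0.141), which left 1 member. It was also lost with a robust variance trend (adjusted p = 0.0505). All measured P2X and P2Y receptor genes, for ATP and other nucleotides, were among the genes that did not pass. Of the 19 genes, 14 had a mean below the probe set median.

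Genes of pyrophosphate and phosphate handling moved in both directions: 3 of 9 measured genes fell, 2 rose, which were Nt5e and Alpl again, and 4 did not pass, against 5.31% of all genes higher and 4.34% lower. The list median was 0.015. Slc20a1, a sodium-dependent phosphate importer, was at 10.22, 10.18 and 10.22 with CHIR99021 and at 10.90, 10.94 and 10.97 with XAV939. It fell by 0.73 (SE 0.05, limma adjusted p = 9.56e-06). Ank, which exports ATP and pyrophosphate from cells, was at 6.45, 6.24 and 6.50 against 6.92, 6.79 and 6.71 and fell by 0.41 (SE 0.08, adjusted p = 0.0079). Slc20a2, the other phosphate importer of this pair, fell by 0.23 (SE 0.05, limma adjusted p = 0.023). Its call was lost in 5 of the 6 fits that left out 1 array, all but that without XAV939 replicate 1 (adjusted p = 0.056 to 0.098), which left 2 members lower. With all probe sets tested Slc20a2 (0.075) and Ank (0.062) did not pass, and Slc20a1 was the 1 member lower. Abcc6, a transporter needed for extracellular pyrophosphate, had a difference of 0.015 ± 0.060.

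For lysophosphatidic acid, the product of ENPP2, 2 of 10 measured genes rose, 1 fell and 7 did not pass, against 5.31% of all genes higher and 4.34% lower. The receptor gene Lpar1 rose by 0.32 ± 0.05 (limma adjusted p = 0.0025) and the lipid phosphatase gene Plpp1 by 0.27 ± 0.06 (limma adjusted p = 0.020), while the receptor gene Lpar4 fell by 0.44 (SE 0.09, limma adjusted p = 0.013). Plpp1 did not pass when CHIR99021 replicate 2 or 3, or XAV939 replicate 2, was left out (adjusted p = 0.058 to 0.078). Lpar4 did not pass when CHIR99021 replicate 1 or 3, or XAV939 replicate 3, was left out (adjusted p = 0.054 to 0.061).

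For choline and sphingomyelin, 2 of 19 measured genes rose, 2 fell and 15 did not pass, against 5.31% of all genes higher and 4.34% lower. Slc44a1, a choline transporter, was at 9.59, 9.62 and 9.62 with CHIR99021 and at 8.19, 8.86 and 8.82 with XAV939, and rose by 0.99 ± 0.14 (1.98-fold, limma adjusted p = 0.0014). XAV939 replicate 1 was the low array. Gdpd1, a glycerophosphodiesterase, rose by 0.54 ± 0.10 (limma adjusted p = 0.0046). Chka, a choline kinase, and Smpd2, a neutral sphingomyelinase, both fell by 0.20 (limma adjusted p = 0.032 and 0.048). Neither call held in every fit that left out 1 array. Leaving out CHIR99021 replicate 1 or 2, or XAV939 replicate 2 or 3, left no member called lower. Chka was also lost without CHIR99021 replicate 3 (adjusted p = 0.070 to 0.139 over these). Smpd2 was also lost without XAV939 replicate 1 (0.078 to 0.184). The differences themselves moved little, from -0.213 to -0.184 for Chka and from -0.238 to -0.171 for Smpd2. Smpd2 was also lost with a variance trend (adjusted p = 0.081) and a robust trend (0.087).

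In the cGAMP and STING list 2 of 9 rose, 7 did not pass and none fell in limma (0 at an unadjusted p under 0.05), against 5.31% of all genes higher and 4.34% lower. Sting1, the receptor of cGAMP, was at 5.81, 5.87 and 6.16 with CHIR99021 and at 5.38, 5.49 and 5.42 with XAV939 and rose by 0.52 ± 0.09 (limma adjusted p = 0.0029). Abcc1, a transporter that exports cGAMP, rose by 0.22 ± 0.05 (limma adjusted p = 0.016). Abcc1 did not pass when CHIR99021 replicate 1 or 2, or XAV939 replicate 3, was left out (adjusted p = 0.058 to 0.067), which left 1 member. Cgas, the enzyme that makes cGAMP, had a difference of -0.019 ± 0.049 at a low level.

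**Figure D4:**
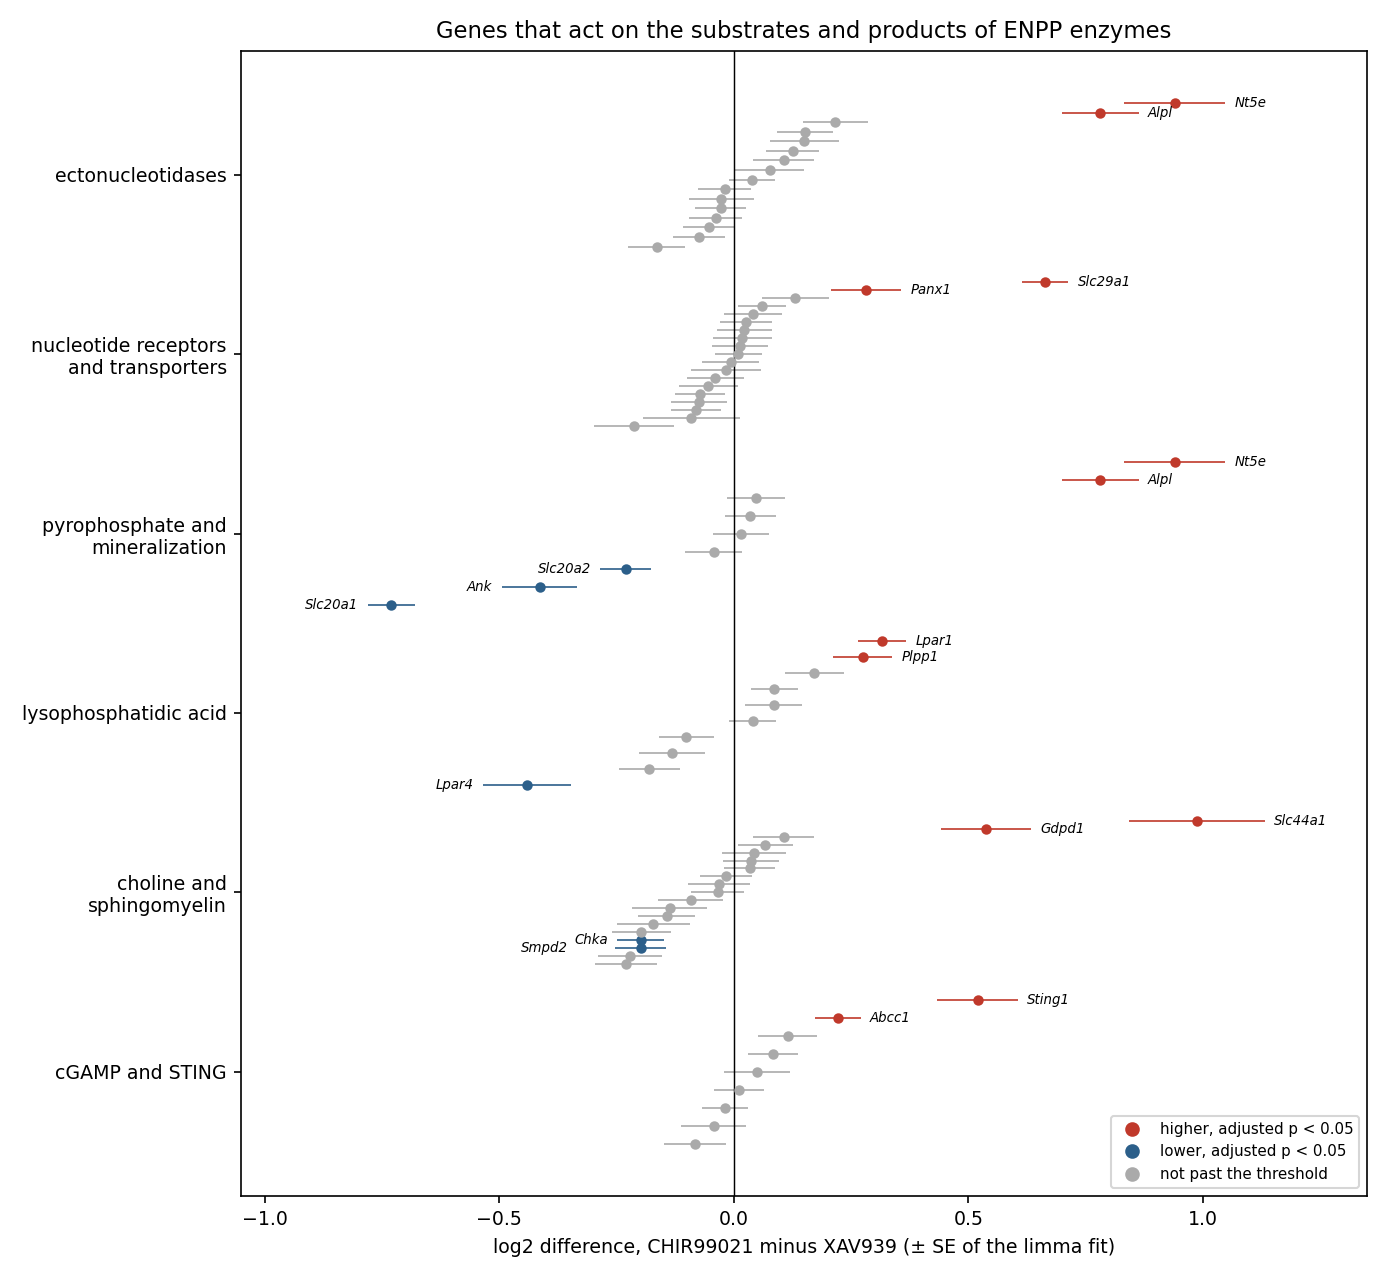
Log2 difference, CHIR99021 minus XAV939, with the SE of the limma fit for every measured member of 6 gene lists, 1 point per gene; red and blue mark genes past an adjusted p of 0.05 and grey the others. Nt5e and Alpl (in 2 lists), Slc29a1 and Slc44a1 are the points above 0.6, and Slc20a1 is the lowest at -0.73.

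Markers of other cells were read beside these results. Of 14 feeder fibroblast markers, 6 were higher with CHIR99021, among them Col1a1 by 1.05 ± 0.05, and none was lower in limma (0 at an unadjusted p under 0.05), against 5.31% of all genes higher and 4.34% lower. Their mean log2 level was 6.52 to 6.56 on the CHIR99021 arrays and 6.22 to 6.32 on the XAV939 arrays. Of the 14, 5 had a mean below the probe set median, among them decorin (Dcn), lumican (Lum) and periostin (Postn), at or below percentile 22.1. The 6 that were higher with CHIR99021 all lay above the median. Col1a1, Col1a2, Col5a1 and Pdgfrb were at percentiles 77.4, 70.9, 69.8 and 59.6, and the contractile genes Acta2 and Tagln at 92.0 and 94.3. Col3a1, Col6a1 and Thy1 also lay above the median and did not pass. The part of feeder cells in the difference of Enpp3 or of any gene of these lists was not tested. Of 10 basophil and mast cell markers, none passed in limma, against 9.65% of all genes in either direction. Among the 10 markers, 1 (Hdc, lower) had an unadjusted p under 0.05 and 8 lay below the probe set median. Their mean log2 level was 5.07 to 5.12 with CHIR99021 and 5.07 to 5.11 with XAV939. The part of these cells in the Enpp3 difference was not tested. Fcer1a, Ms4a2 and Mcpt8 lay at percentiles 21.3, 17.3 and 31.2, while Gata2 and Il3ra lay above the median, at 52.2 and 66.3.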

How the data were processed

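Total RNA, purified with TRIzol and columns and labelled with whole-transcript kits per the labels' protocols, was measured on 6 arrays. The deposited log2 expression values were computed by the authors with RMA, per the submitters' processing notes. No version or genome build was given in these sources. RMA normalises between arrays by quantiles and compresses differences of weakly expressed genes. No scanner files were used, so no detection call and no scan batch could be examined, and the number of arrays limits the precision.

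Of 34760 probe sets, 21640 named 1 gene in the platform annotation, 1321 several and 11799 none. The RefSeq table held the Entrez identifier of 21553 of those with 1 gene. The probe set with the highest mean stood for a gene, giving 19937 genes. CHIR99021 and XAV939 were compared with limma 3.58.1 (lmFit, eBayes) in R 4.3.3 on the deposited values, with Benjamini-Hochberg adjustment over all genes, a threshold of 0.05, 4 residual and 6.15 prior degrees of freedom. The fit was tested on simulated data. An exact permutation test of 3 against 3 cannot go below 0.1 and was not used.

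The members and lists were chosen with earlier results of these data known. Members of 6 pathway lists past the threshold were named, at most 4 per list with the smallest p, together with every Enpp gene, the nearest measured neighbours (5 on each side of Enpp3 and Enpp1, 3 on each side of Enpp4 and Enpp5) and the 5 genes most correlated with Enpp3, predicted genes left out. Other members were named after their values were seen. Alternatives were median centring, renewed quantile normalisation, filters at the 25th and 50th percentile of level, the mean of probe sets, all probe sets, a variance trend, a robust trend, a threshold of 0.01, the replicate number as a block, and leaving out each array. Cd38, the 4 adenosine receptor genes, Spp1, Lpar5, Chkb and the β-catenin target T were not analysed here. Plots were drawn with matplotlib 3.10.9.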

Additional observations from a re-analysis of the deposited data

How the results depend on the processing

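The comparison of the Enpp genes kept its directions in every setting run for them, with Enpp3 between -2.87 and -2.75, but the settings without genes below the 25th and 50th percentile of level left out Enpp6, and the latter also Enpp5. The planned gap between Enpp3 and Enpp1 was not run because Enpp1 was not analysed here. The count of genes past the threshold, 1924 (1058 higher and 866 lower), was 1118 (621 and 497) at 0.01, by construction, and 1307 (698 and 609) with all probe sets tested. Leaving out 1 array gave 1254 (without CHIR99021 replicate 2) to 2247 (without XAV939 replicate 1) genes, 726 to 1130 of them higher and 528 to 1117 lower. The lower count was 573 without CHIR99021 replicate 1 and 528 without replicate 2. With the replicate number as a block the count was 1578 (876 higher and 702 lower). Arrays of the same number did not deviate together (correlations of deviations -0.096, 0.060 and -0.14), so the numbers were not taken as pairs, and under the block the calls of Abcc1, Chka, Smpd2 and Slc25a27 were lost (adjusted p = 0.050 to 0.098). With all probe sets tested Ank (0.062), Gdpd1 (0.051), Lpar4, Plpp1, Panx1, Chka, Smpd2, Moxd1, Slc20a2 and Slc25a27 also did not pass. Near-zero differences that changed sign, none of them past the threshold, were Akap7 (-0.13 to 0.027, the latter without XAV939 replicate 2), Tmem200a (-0.10 to 0.028, the latter without XAV939 replicate 1), Rcan2 (-0.0048 to 0.041, below 0 without XAV939 replicate 2 or 3, at -0.0035 for replicate 2), Taar9 (-0.0065 without CHIR99021 replicate 2, to 0.14), Clic5 (-0.020 to 0.093) and 4930564C03Rik (-0.010 to 0.093), both below 0 without CHIR99021 replicate 1. The cause of these changes was not tested. Enpp5 and Enpp6 were measured at low array signal.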

Other observations

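The 2 genes most correlated with Enpp3, Bcl2l11 and Slc27a2, both lie on chromosome 2, while Enpp3 lies on chromosome 10 and Sema3e, Chd9 and Car4 on chromosomes 5, 8 and 11. This was looked at after the genes had been named. Between Slc27a2 and Bcl2l11 the RefSeq table lists 30 protein-coding genes, of which 28 were measured. Their median difference, CHIR99021 minus XAV939, was 0.0078, against -2.33 for Slc27a2 and -1.20 for Bcl2l11. Of these 28 genes, 2 were higher and 1 was lower with CHIR99021 in the limma fit, against 5.31% of all genes higher and 4.34% lower. The lowest was Stard7, a lipid transfer protein of mitochondria, at -0.30, and the highest was Mall, a membrane protein related to MAL, at 0.35. Bub1, a mitotic checkpoint kinase in this interval, differed by -0.25 and did not pass. Hdc, the histamine-forming enzyme of mast cells and basophils and the gene next to Slc27a2 in the table, had a difference of -0.13 ± 0.06 (SE) and did not pass, at percentile 49.2 of level.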
